A study of Mus musculus with 8 samples.

Results

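The genes described here are 10 regulators and matrix genes of cartilage, read in whole mouse stomachs at E13.5 of gestation. They are Sox5, Sox6, Sox9, Runx2, Col2a1, Col9a1, Acan, Matn3, Hapln1 and Comp, chosen by name, and each matched 1 of the 26747 assembled loci. Of the 10, 9 passed the filter on low counts and stood among 14574 tested loci. Comp did not pass, and Matn3 passed through the YAP5SA libraries alone. The 4 wild type libraries were compared with 4 libraries of genotype Nkx3.2Cre;R26-YAP5SA, called YAP5SA here. In that genotype, Cre recombinase from the Nkx3-2 gene, which is active in stomach mesenchyme, turns on a YAP coactivator that Hippo kinases cannot inhibit. No library carried Cre without YAP5SA, so the effects of each cannot be told apart. Whether a library holds RNA of 1 embryo or of a pool is not stated in the labels, so p-values cover the spread between these 8 libraries, which may be technical.

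Cartilage forms when mesenchymal cells switch on Sox9, which with Sox5 and Sox6 drives genes of the cartilage matrix. Type II collagen (Col2a1) is the main fibril, type IX collagen (Col9a1) coats it, and aggrecan (Acan) is held to hyaluronan by the link protein Hapln1. Matn3 and Comp encode adaptor proteins that bridge collagen and proteoglycan, and Runx2 directs chondrocyte hypertrophy and bone formation. The stomach makes no cartilage, but Sox9 is known in the mesenchyme of the pyloric sphincter and in gut epithelium, and SOX factors also act in neural crest derivatives.

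Promoters of 4 of these genes are shown because they span the range of responses: Matn3 and Runx2 rose, while Sox5 and Acan did not pass the test. Each window runs from 250 bases before to 50 after a RefSeq transcription start (GRCm38.p6, the assembly behind mm10), 5′ to 3′ on the gene's strand. The windows are chr12:8947679-8947978 (plus strand) for Matn3, chr6:143947057-143947356 (minus) for Sox5, chr17:44814578-44814877 (minus) for Runx2 and chr7:79052976-79053275 (plus) for Acan. Capitals mark matches on either strand to CATTCC (bound by TEAD factors, the DNA-binding partners of YAP), ACAAAG or ACAATG (SOX) and TGNGGT (RUNX).
Matn3: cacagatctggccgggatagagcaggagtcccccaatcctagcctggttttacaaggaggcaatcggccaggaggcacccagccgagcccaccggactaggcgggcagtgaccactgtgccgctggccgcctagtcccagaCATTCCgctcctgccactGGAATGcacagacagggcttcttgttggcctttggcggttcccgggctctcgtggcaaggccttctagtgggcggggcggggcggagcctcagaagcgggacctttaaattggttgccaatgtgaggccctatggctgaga
Sox5: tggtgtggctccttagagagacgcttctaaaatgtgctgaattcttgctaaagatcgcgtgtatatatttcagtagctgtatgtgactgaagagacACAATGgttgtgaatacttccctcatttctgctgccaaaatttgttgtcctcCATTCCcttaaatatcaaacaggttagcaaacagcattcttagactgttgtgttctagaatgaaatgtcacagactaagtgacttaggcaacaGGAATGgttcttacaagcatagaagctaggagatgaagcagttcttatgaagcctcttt
Runx2: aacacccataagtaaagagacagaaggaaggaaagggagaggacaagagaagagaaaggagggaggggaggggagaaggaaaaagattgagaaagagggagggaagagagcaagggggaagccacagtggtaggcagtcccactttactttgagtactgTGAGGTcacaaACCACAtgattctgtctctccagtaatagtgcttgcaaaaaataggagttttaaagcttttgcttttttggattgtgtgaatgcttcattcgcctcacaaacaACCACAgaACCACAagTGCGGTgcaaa
Acan: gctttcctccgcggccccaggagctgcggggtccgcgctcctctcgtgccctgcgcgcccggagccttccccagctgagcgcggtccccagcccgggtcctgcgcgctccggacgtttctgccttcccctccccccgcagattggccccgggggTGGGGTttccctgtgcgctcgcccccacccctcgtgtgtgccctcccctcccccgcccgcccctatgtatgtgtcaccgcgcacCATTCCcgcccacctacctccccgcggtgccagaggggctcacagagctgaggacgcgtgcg

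The Matn3 window held 2 matches to CATTCC, whose first bases lay 109 and 91 bases before the start, and none to the other motifs. Sox5, which was not called, also held 2, at 102 and 9 bases before the start, and Acan held 1. That Sox5 start is internal. On the minus strand the locus begins at 144781999, and no window there was searched. Of all 32851 promoter windows, 14.7% held at least 1 such match and 1.36% held 2 or more. The Runx2 window held 5 matches to TGNGGT and none to CATTCC, against 0.167% of all windows with 5 or more matches to TGNGGT and 45.8% with at least 1. ACAAAG was present in 18.7% and ACAATG in 12.6% of windows, and the Sox5 window held 1 match to ACAATG. These matches describe the letters only. A window was found for 7 of the 10 genes, Sox5, Sox6, Runx2, Col9a1, Acan, Matn3 and Hapln1. Among windows not shown, those of Sox6 beginning at chr7:116038695 and chr7:115846091 held 1 match to CATTCC each. The other Sox6 windows and those of Col9a1 and Hapln1 held none.

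In YAP5SA stomachs, transcripts of the matrix genes Matn3 and Col2a1 and of the regulator Runx2 rose, by 13.3-fold, 2.04-fold and 3.11-fold. The Runx2 value rests in part on YAP5SA replicate 1, without which its log2 fold change was 1.03 instead of 1.63. The 3 SOX genes, Col9a1, Acan and Hapln1 did not pass the test, and Comp was too low to test. Thus 3 of 9 tested genes were called higher and 0 lower (edgeR quasi-likelihood test, Benjamini-Hochberg adjusted p under 0.05), against 9.06% of all tested loci called higher and 9.85% lower. These shares describe and do not test the group. Matn3 passed the filter through the YAP5SA libraries alone, and the genes were chosen with earlier results of these data known. At an unadjusted p under 0.05, Sox9 was lower, and under the replicate block, a fit that pairs libraries of the same number, it was the 1 gene called lower (adjusted p = 0.0101), while Runx2 lost its call (adjusted p = 0.052), leaving 2 called higher. DESeq2 and limma-voom also called 0 of the 9 lower. The median log2 fold change of the 9 was 0.33, beside −0.01 over all tested loci. Fold changes are YAP5SA minus wild type on the log2 scale with a standard error (SE), and levels are given as CPM, fragment counts relative to the TMM-scaled size of the library, as mean ± SD of 4 libraries. In bulk tissue, a change in the number of cells of a type and a change in RNA per cell cannot be told apart.

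Sequencing depth was 6328344 to 6919353 fragments in wild type and 7293556 to 8513116 in YAP5SA, the highest in YAP5SA replicate 1. That library also differed most from the others of its genotype (chi-square over degrees of freedom of 5.97 to 6.99 in its 3 pairs, against 2.27 to 5.46 in the other pairs of YAP5SA). No pair of libraries of a genotype agreed within sampling noise.

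**Figure D1:**
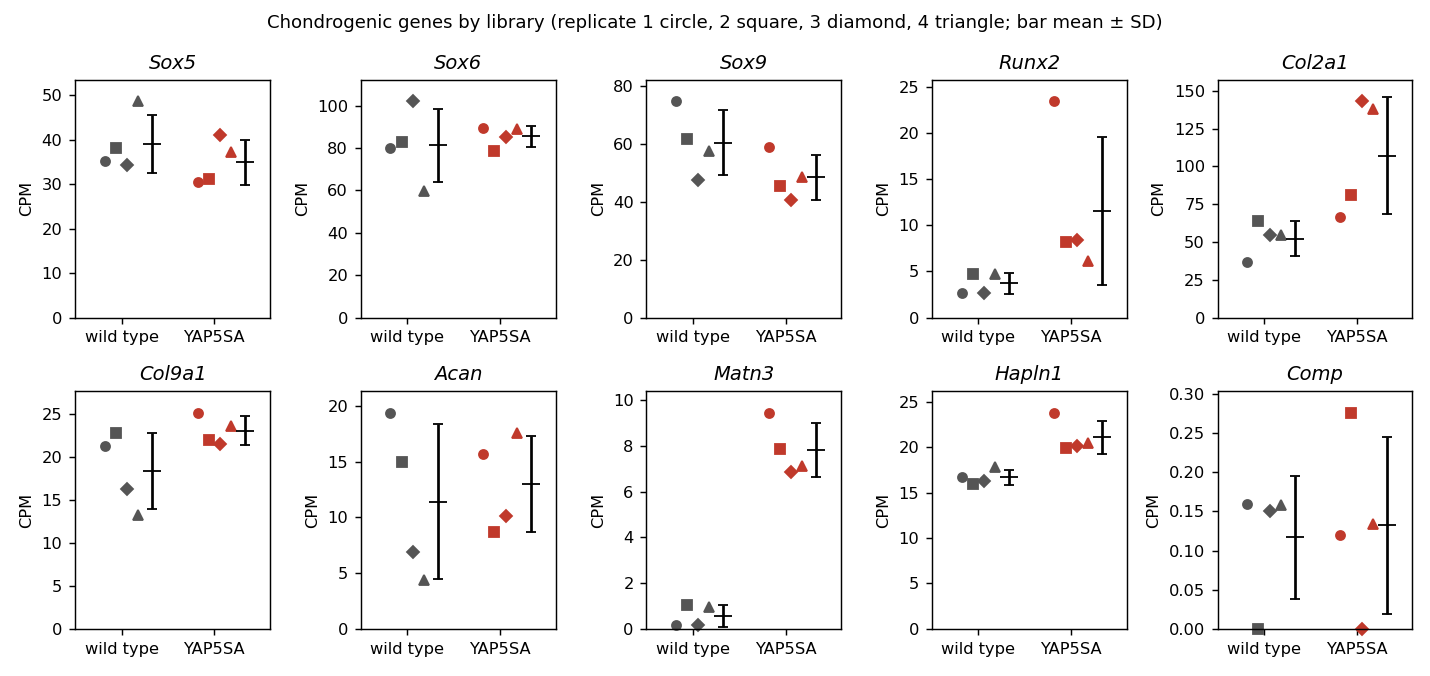
CPM of each gene in each library (vertical axes from 0), wild type grey and YAP5SA red, with the mean and SD of 4 libraries in black. Matn3, Runx2, Col2a1 and Hapln1 show no overlap between the genotypes, and Runx2 in YAP5SA replicate 1 stands at 23.4 CPM above the other 3.

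Sox9, the master regulator of chondrogenesis (chromosome 11, 112782210 to 112787757, mm10, protein-coding), was at 74.7, 61.6, 47.7 and 57.5 CPM in wild type replicates 1 to 4 and at 58.8, 45.5, 40.6 and 48.7 CPM in YAP5SA. The genotypes overlapped, but within each number the YAP5SA library was lower. The means were 60.4 ± 11.2 and 48.4 ± 7.70 CPM (SD, n = 4), a log2 fold change of −0.32 ± 0.14 (edgeR adjusted p = 0.16). Under the replicate block the change was −0.31 and passed (adjusted p = 0.0101). Sox9 is shared with epithelial and neural crest cells, and markers of both were lower in YAP5SA. Of 12 tested epithelial loci, 11 fell and 0 rose, and their summed FPKM (fragments scaled to locus length and library size) was 537 to 621 in wild type and 325 to 408 in YAP5SA. Of 11 loci of enteric glia and neural crest, 10 fell and 0 rose, with summed FPKM of 212 to 228 and 103 to 135. No marker on either list was at 0 in all libraries. The part of these cell types in the Sox9 values was not tested. Of 6 loci of pyloric sphincter genes, 1 rose and 3 fell, with summed FPKM of 130.2 to 155 in wild type and 97.7 to 121 in YAP5SA.

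Sox5 and Sox6 encode partner factors without a transactivation domain that bind beside SOX9 on cartilage genes. For Sox5 (chromosome 6, 143828425 to 144781999), wild type replicates 1 to 4 stood at 35.3, 38.1, 34.3 and 48.6 CPM and YAP5SA at 30.5, 31.1, 41.0 and 37.2 CPM, a log2 fold change of −0.16 ± 0.13 (adjusted p = 0.47, 95% interval −0.46 to 0.13). Sox6 (chromosome 7, 115470890 to 116039771) stood at 80.2, 82.9, 102 and 59.8 CPM in wild type and 89.2, 78.6, 85.4 and 89.1 CPM in YAP5SA. Its log2 fold change was 0.07 ± 0.13 (adjusted p = 0.75, interval −0.21 to 0.36), and −0.05 without wild type replicate 4, the lowest library. Both intervals lie within a change of 1 on the log2 scale in either direction. Annotated antisense transcripts overlap both genes, and whether counting used strand is not stated.

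Runx2, which directs chondrocyte maturation and osteoblast formation, was low throughout. Its fragments numbered 17, 32, 18 and 30 in wild type and 195, 59, 62 and 46 in YAP5SA, or 2.70, 4.70, 2.70 and 4.74 against 23.4, 8.15, 8.36 and 6.17 CPM. Every YAP5SA library was above every wild type library, but replicate 1 far above the other 3. The log2 fold change was 1.63 ± 0.44 (edgeR adjusted p = 0.026), and 1.03 without YAP5SA replicate 1 (adjusted p = 0.0295). Leaving out wild type replicate 1 (0.0654) or replicate 3 (0.0673), or adding the replicate block (0.052), ended the call. FPKM did not follow the fragments, at 0.996 for the 17 fragments of wild type replicate 1 and 0.963 for the 32 of replicate 2. The deposited locus (chromosome 17, 44604001 to 45119346) has 3 start sites and shares its span with Supt3h, a gene on the opposite strand (GENCODE symbol Supt3). Supt3h stood at 30.7 ± 2.40 and 30.4 ± 1.97 CPM (adjusted p = 0.95). Annotated antisense transcripts overlap the Runx2 locus too, and the part of overlapping genes in its fragments was not tested.

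Col2a1, which encodes the main cartilage collagen (chromosome 15, 97975602 to 98004724), was at 36.5, 63.8, 54.4 and 54.3 CPM in wild type and 66.5, 81.2, 143 and 138 CPM in YAP5SA. In CPM the genotypes did not overlap, although the lowest YAP5SA library lay just above the highest wild type library, and YAP5SA replicates 3 and 4 were well above replicates 1 and 2. The mean went from 52.3 ± 11.4 to 107 ± 38.9 CPM (log2 fold change 1.03 ± 0.25, edgeR adjusted p = 0.017). Without YAP5SA replicate 3 the adjusted p was 0.0594 and without replicate 4 it was 0.0503. The summed FPKM of skeletal muscle markers was also highest in YAP5SA replicates 3 and 4. It was 31.3, 17.3, 21.5 and 13.3 in wild type and 23.7, 26.1, 59.8 and 51.6 in YAP5SA. Of 10 listed muscle genes, 8 had a locus and 6 were tested. In CPM, Myod1, Myog, Acta1 and Mylpf were highest in those 2 libraries. Tnnt3 was highest in YAP5SA replicate 2 (5.25 CPM). Actn3 was higher in wild type replicate 3 (4.35 CPM) than in YAP5SA replicate 4 (3.89 CPM). Of 6 tested muscle genes, 2 rose, the myogenic factors Myod1 (3.53 ± 0.73, adjusted p = 0.0074) and Myog (2.74 ± 0.59, adjusted p = 0.0091), and 0 fell. Without wild type replicate 1, the highest of its genotype for both, the changes were 4.70 and 3.39. YAP5SA replicates 1 and 2 had muscle sums inside the wild type range, but Myod1 at 2.28 and 8.15 CPM and Myog at 3.83 and 6.22 CPM, above the wild type maxima of 2.22 and 3.02 CPM. The part of muscle cells in the Col2a1 values was not tested. Of 5 tested mesothelial markers, 0 rose and 1 fell, with summed FPKM of 102 to 162 in wild type and 100.2 to 126 in YAP5SA.

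Matn3, a matrilin that links collagen fibrils to other matrix proteins (chromosome 12, 8947929 to 8972028), showed the largest fold change among the 9 tested genes. Its fragments numbered 1, 7, 1 and 6 in wild type and 79, 57, 51 and 53 in YAP5SA, or 0.159, 1.03, 0.15 and 0.947 against 9.46, 7.88, 6.88 and 7.11 CPM. The YAP5SA libraries were close together and far above all wild type libraries. The log2 fold change was 3.73 ± 0.44 (edgeR adjusted p = 0.00036), and 3.43 to 4.19 with any 1 library left out. Unlike Col2a1, Matn3 was not higher in YAP5SA replicates 3 and 4 than in 1 and 2. Intervals on such low wild type counts are wide (2.76 to 4.70 at 95%).

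Hapln1, the cartilage link protein (chromosome 13, 89540565 to 89611832), was at 16.7, 15.9, 16.3 and 17.8 CPM in wild type and 23.8, 19.9, 20.1 and 20.5 CPM in YAP5SA. The libraries of each genotype lay close together and the genotypes did not overlap, yet the gene missed the threshold (0.34 ± 0.11, edgeR adjusted p = 0.056) and missed it under every alternative run (0.0525 to 0.171). With Matn3, Runx2 and Col2a1, 4 of 9 genes were thus higher in every YAP5SA library than in any wild type library and 0 lower, against 10.9% and 12.4% of all tested loci. The limits given for the called genes, the filter on Matn3 and the choice of genes, hold here too. Col9a1 (chromosome 1, 24177610 to 24252738) was at 21.3, 22.8, 16.3 and 13.3 CPM in wild type and 25.2, 22.0, 21.6 and 23.7 CPM in YAP5SA, with wild type replicate 2 alone inside the YAP5SA range (0.33 ± 0.16, adjusted p = 0.21, interval −0.04 to 0.69).

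Acan, the large aggregating proteoglycan (chromosome 7, 79053483 to 79115099), varied most among wild type libraries of the genes above 1 CPM, at 19.4, 15, 6.90 and 4.42 CPM, a coefficient of variation of 61.0%. Hapln1 varied by 5.03%. YAP5SA libraries had Acan at 15.7, 8.70, 10.1 and 17.6 CPM, inside the wild type range. The log2 fold change was 0.19 ± 0.41 (adjusted p = 0.81), with an interval from −0.72 to 1.11 that includes a change of 1, and it was −0.08 without wild type replicate 4. Comp, known from cartilage and tendon (chromosome 8, 70373548 to 70382066), had 3 fragments over the wild type and 4 over the YAP5SA libraries, a ratio of 1.14 (95% exact counting interval 0.193 to 7.78), so a difference was not detectable at this depth.

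**Figure D2:**
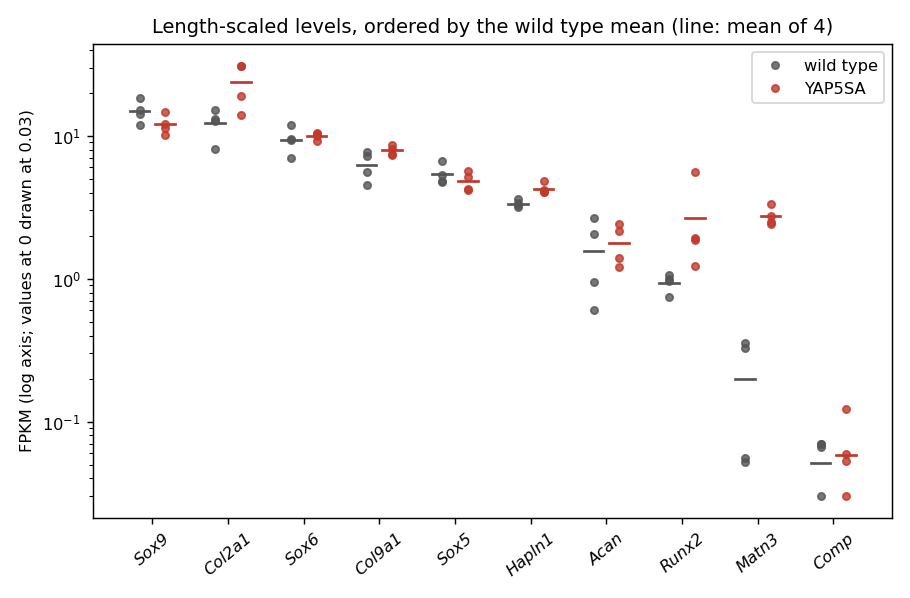
FPKM in each library on a log axis, genes in order of the wild type mean, wild type grey and YAP5SA red, with lines at the mean of 4. Runx2, Matn3 and Hapln1 have no overlap between genotypes, while Col2a1 in YAP5SA replicate 1 (14 FPKM) lies below wild type replicate 2 (15.1 FPKM).

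FPKM corrects for length, so it also orders the genes by level. In wild type, Sox9 came first at 15 ± 2.79 FPKM, then Col2a1 at 12.3 ± 2.94, Sox6 at 9.39 ± 1.97, Col9a1 at 6.24 ± 1.48 and Sox5 at 5.38 ± 0.884, each neighbour overlapping the next in its library values. Hapln1 at 3.36 ± 0.171 FPKM lay below every Sox5 value. Acan at 1.56 ± 0.953 and Runx2 at 0.939 ± 0.139 FPKM overlapped, and Matn3 at 0.199 ± 0.168 FPKM was below both and overlapped Comp at 0.0513 ± 0.0343. In YAP5SA, Col2a1 led at 23.7 ± 8.58 FPKM, above Sox9 at 12.1 ± 1.94, with overlap in library values. Within single libraries, Col2a1 exceeded Sox9 in 1 of 4 wild type and 3 of 4 YAP5SA libraries. Matn3 reached 2.74 ± 0.414 FPKM, beside Runx2 at 2.65 ± 1.99 and Acan at 1.79 ± 0.589.

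Called genes among the other cartilage matrix genes went in both directions. Of 18 listed, 13 were tested, 3 rose and 1 fell, with a median log2 fold change of 0.08. Those that rose were the secreted factor Cytl1 (2.08 ± 0.56, adjusted p = 0.026; 0.061 under the replicate block, 0.0606 by limma-voom), the leucine-rich proteoglycan gene Epyc (1.31 ± 0.37, adjusted p = 0.031) and the sulfate donor synthase Papss2 (0.58 ± 0.15, adjusted p = 0.019). Cytl1 had 21 fragments over the wild type libraries against 104 over YAP5SA, and its YAP5SA replicate 1, at 1.08 CPM, overlapped wild type. Epyc and Papss2 overlapped too. In wild type replicate 1, Epyc was at 4.45 CPM, above YAP5SA replicate 2 at 4.42 CPM. Papss2 was there at 32.9 CPM, above YAP5SA replicate 4 at 32.1 CPM. Col27a1, a fibrillar collagen of developing cartilage, fell by 0.34 ± 0.05 (adjusted p = 0.0013), from 238 ± 11.8 to 188 ± 7.48 CPM with no overlap. The calls of the 3 that rose were lost when single libraries were dropped, with the direction kept. Without wild type replicate 2, 3 or 4, Cytl1 was at 2.14, 2.06 and 1.76 (adjusted p = 0.0633, 0.0617 and 0.0544), and without YAP5SA replicate 2, 3 or 4 it did not pass the filter and gave no value. Dropping the same wild type libraries left Papss2 at 0.53, 0.55 and 0.55 (0.0611, 0.0513 and 0.0519), and dropping YAP5SA replicate 3 left it at 0.56 (0.052). For Epyc, the same 3 wild type libraries gave 1.15, 1.34 and 1.23 (0.0869, 0.0633 and 0.0752), while YAP5SA replicates 1 and 4 gave 0.98 and 1.30 (0.0652 and 0.0606).

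None of the 4 listed chains that join type II or type IX collagen in cartilage fibrils was called. Col9a2, another chain of type IX collagen, was at 31.3 and 31.6 FPKM (log2 fold change 0.01 ± 0.08, adjusted p = 0.97), and Col11a1, which nucleates cartilage fibrils, at 28.7 and 33.3 FPKM (0.20 ± 0.12, adjusted p = 0.28). The other chains, Col9a3 and Col11a2, were lower, at 5.68 and 6.03 FPKM (0.08 ± 0.25, adjusted p = 0.87) and at 2.48 and 2.07 FPKM (−0.26 ± 0.24, adjusted p = 0.52, interval −0.80 to 0.28). Levels of genes known from differentiated cartilage ranged widely. Matn4 had 655 fragments over the wild type and 524 over the YAP5SA libraries, Chad had 121 and 108, and Lect1 (chondromodulin) had 43 and 63, none of them called. Others were at or near 0 in both genotypes: Matn1 had 3 fragments over the wild type and 2 over the YAP5SA libraries, the hypertrophic collagen gene Col10a1 had 1 and 2, Ucma had 1 and 0, and 3110079O15Rik (the chondrocyte proteoglycan gene Snorc) was listed at 0 in all 8.

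Among 17 tested genes of 21 further chondrogenic regulators and receptors, 2 rose and 3 fell (median 0.03). The forkhead genes Foxc1 and Foxc2, which act with SOX9 in skeletal progenitors, rose by 1.23 ± 0.23 (adjusted p = 0.0041) and 1.72 ± 0.31 (adjusted p = 0.0034). Foxc1 went from 4.57 ± 1.25 to 10.8 ± 1.70 CPM and Foxc2 from 2.83 ± 1.12 to 9.32 ± 2.00 CPM, with no overlap. Smpd3, a sphingomyelinase gene active in growing cartilage, fell by 1.29 ± 0.18 (adjusted p = 0.00082) and Sox8, a close relative of Sox9 that also marks glia, by 0.78 ± 0.14 (adjusted p = 0.0034). Those 4 calls held under every alternative run. The BMP receptor gene Bmpr1b fell by 0.56 ± 0.17 (adjusted p = 0.04), a call lost under the replicate block (0.0651), with no filter (0.07), in both FPKM fits (0.0585 and 0.058) and without any library but wild type or YAP5SA replicate 1 (0.0615 to 0.105). The more abundant Bmpr1a (adjusted p = 0.69) and Cbfb, the RUNX partner subunit (adjusted p = 0.082), were not called.

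Bone and tendon genes were read beside Runx2 and Comp. Of 9 tested genes on the bone list, which includes regulators, 1 rose and 1 fell, with a median of −0.08. The regulator gene Twist2 rose (0.42 ± 0.11, edgeR adjusted p = 0.02). The alkaline phosphatase gene Alpl fell (−0.89 ± 0.21, edgeR adjusted p = 0.014). A rise on this list is not a measure of bone formation, which was not tested. The Twist2 call ended when wild type replicate 2 (0.0505) or YAP5SA replicate 3 (0.0731) was dropped. Sp7, the osteoblast factor that acts after Runx2, was at 4.23 ± 1.72 and 4.00 ± 1.36 CPM (adjusted p = 0.91), Dlx5 at 5.07 ± 1.83 and 2.83 ± 0.715 CPM (adjusted p = 0.094) and Dlx3 at 4.38 ± 2.01 and 3.23 ± 1.17 CPM (adjusted p = 0.53). Spp1 (osteopontin) was the most abundant of the list, at 50.3 ± 31.8 and 55.5 ± 16.4 CPM (adjusted p = 0.85). Of 9 tendon and fibrocartilage genes, 0 rose and 1 fell, tenomodulin (Tnmd), from 8.20 ± 0.674 to 2.53 ± 2.15 CPM (−1.67 ± 0.45, adjusted p = 0.027). Dropping any library other than wild type or YAP5SA replicate 1 ended that call (0.0561 to 0.0741), and without YAP5SA replicate 1, at 5.63 CPM the highest of its genotype, the change was −2.43 (adjusted p = 0.000816). The abundant collagens Col12a1, at 467 ± 133 and 610.0 ± 63.0 CPM (0.39 ± 0.17, adjusted p = 0.15), and Col14a1, at 296 ± 30.1 and 344 ± 50.7 CPM (0.22 ± 0.11, adjusted p = 0.2), were not called, nor were Mkx (−0.54, adjusted p = 0.11) and Thbs4 (0.49, adjusted p = 0.19). Scx, the tendon progenitor factor, was at 23.3 ± 3.29 and 18.9 ± 3.22 CPM (adjusted p = 0.2).

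**Figure D3:**
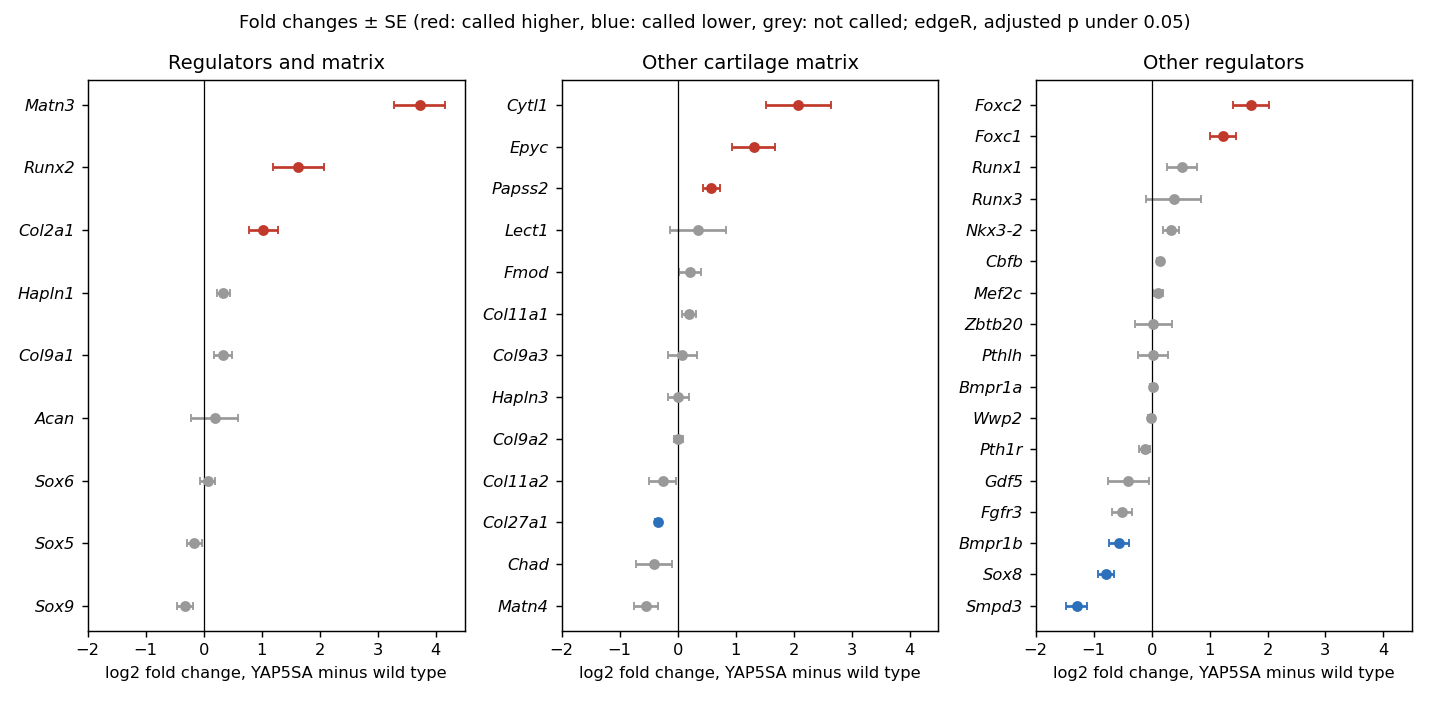
Log2 fold changes with SE for the 9 tested genes (left), 13 other matrix genes (middle) and 17 other regulators (right), red called higher, blue called lower and grey not called. Matn3 lies farthest right at 3.73 and Smpd3 farthest left at −1.29.

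Of 24 tested loci within 100 kb of the 10 genes, 1 was called higher and 0 lower, against 9.06% and 9.85% of all tested loci. The locus called was Wdr35, a ciliary transport gene whose locus begins 1972 bases past the end of Matn3, which went from 72.3 ± 5.71 to 91.9 ± 1.49 CPM (0.35 ± 0.06, edgeR adjusted p = 0.0029). Col19a1, a collagen gene 4944 bases from Col9a1, had the largest difference, at 12.7 to 22.2 CPM in wild type and 17.3 to 49.0 CPM in YAP5SA (0.79 ± 0.29, adjusted p = 0.088, interval 0.15 to 1.44), and was not called. Vcan, which encodes versican and lies beside Hapln1, was at 500.0 ± 78.3 and 375 ± 66.0 CPM (adjusted p = 0.06). Hapln3, the link protein gene beside Acan, was at 14.3 ± 3.07 and 14.4 ± 1.81 CPM (adjusted p = 0.99).

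The loci most like a gene in its profile were those with the smallest root-mean-square difference over the 8 libraries, after log2(CPM + 1) was centred on each locus's mean. For Sox9 they were D330028D13Rik (0.05), Hook1 (0.09) and Nox4 (0.11), and for Col2a1 H60b (0.18), Syt2 (0.22) and 9530008L14Rik (0.23). The nearest to Matn3 were Galnt14 (0.28), Radil (0.29) and Pmp2 (0.30), at 3.78, 4.97 and 0.0742 CPM in wild type and 22.3, 27.5 and 5.67 CPM in YAP5SA. Their rise follows from the way they were picked. Their log2 fold changes were 2.55, 2.46 and 5.92, beside 3.73 for Matn3.

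**Figure D4:**
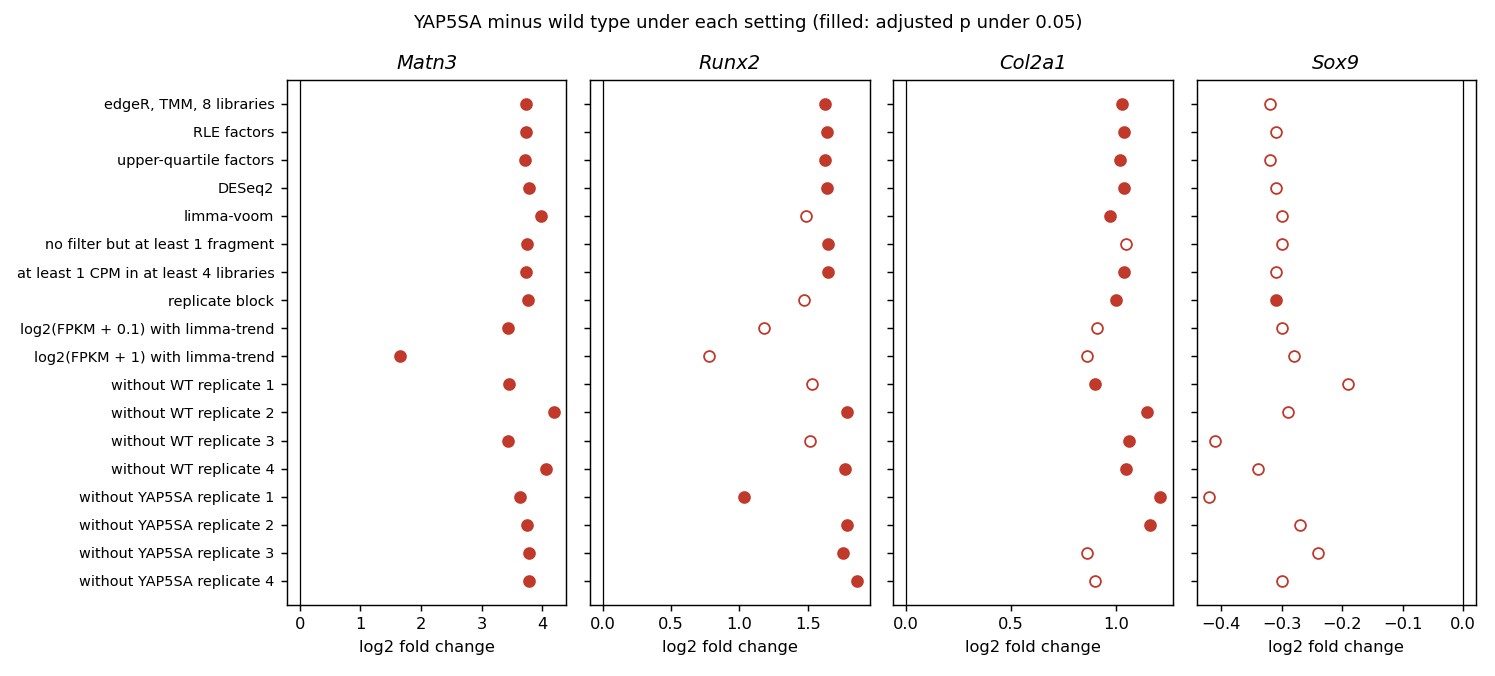
Log2 fold change (horizontal axes differ in range) of Matn3, Runx2, Col2a1 and Sox9 under each of 18 settings, filled where the adjusted p was under 0.05. Matn3 is filled throughout, Sox9 only under the replicate block, and Runx2 falls to 1.03 without YAP5SA replicate 1.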

How the data were processed

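Messenger RNA of wild type and YAP5SA stomachs, in 4 libraries each, was sequenced from Trizol-extracted RNA with an Illumina TruSeq kit, per the labels' protocols. The number of stomachs per library is not stated. TopHat2 2.0.9, Cufflinks 2.2.1 and Cuffdiff with build mm10 are named in the submitters' processing notes, without roles. Read filters, handling of duplicates and strand use are not stated there. The authors deposited, per the file headers, raw fragments per locus and library, which are estimated counts (10.6% to 11% of values not whole), and FPKM per library. Counts were rounded. The table numbers libraries 0 to 3 and the labels 1 to 4; the replicate numbers here are the table's plus 1 and serve as names. Loci without a gene name (3582, with 1.85% to 1.97% of fragments) were left out.

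All 14574 loci that passed filterByExpr (10 fragments in enough libraries, 15 in total) were fitted with edgeR 4.0.16 (R 4.3.3, quasi-likelihood, robust, TMM), with genotype as the term, two-sided, Benjamini-Hochberg adjusted p under 0.05. The step was tested on simulated data. Same-numbered libraries deviated together in all 4 pairs (correlations of deviations 0.14 to 0.22, the highest for each library). The labels do not say that a number, which comes from the table, marks a pair, and the main fit did not pair libraries. The replicate block, which does, was an alternative and is given where it changes a call. Alternatives were RLE and upper-quartile factors, DESeq2 1.42.0, limma-voom (limma 3.58.1), 2 filters, the block, limma-trend on log2(FPKM + 0.1) and log2(FPKM + 1), and leaving out each library. The genes and lists were chosen with earlier results of these data known. Named were all 10 genes and, of each cartilage, bone and tendon list, up to 4 with the smallest p, the 2 most abundant by FPKM and those a count needs; marker lists of other cell types are given by counts and sums. Matn1, Matn4, Col10a1, Ucma, 3110079O15Rik, Chad, Lect1, Col9a3, Col11a2, Sp7, Scx, Wdr35, Col19a1, Vcan and Hapln3 were chosen after their values were seen. Coordinates are those of the deposited table on mm10, 1-based; overlaps and strands came from GENCODE M21. Intervals on counts cover counting error only.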

Additional observations from a re-analysis of the deposited data

Results flagged for a closer look

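In 3 of 20 groups of 4 libraries, 1 library stood apart from the other 3 by Dixon's criterion, which chance meets in about 1 group in 20. Runx2 in YAP5SA replicate 1 was at 23.4 CPM, and the other 3 libraries lay at 6.17 to 8.36 CPM. In the same library Hapln1 was at 23.8 CPM, beside 19.9 to 20.5 CPM. The third group is Comp in wild type, at 0 CPM in replicate 2, where the other 3 held 1 fragment each. With counts of only 0 and 1 the criterion says nothing about that library.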

How the results depend on the processing

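The loci called higher numbered 1004 to 1446 and those called lower 974 to 1590 over all alternatives, beside 1321 and 1436, and Matn3 was called in all 17. Of the 10 genes, 3 were called higher with 8 libraries and 2 to 3 with any 1 library left out. With limma-trend on log2(FPKM + 0.1) or log2(FPKM + 1) the number was 1, Matn3. There Col2a1 was at 0.91 (adjusted p = 0.0721) and 0.86 (0.0668) and Runx2 at 1.18 (0.0588) and 0.78 (0.0857), and the larger pseudocount shrinks low genes by construction, Matn3 to 1.65. Under the replicate block 1 gene, Sox9, was called lower, beside 0 with 8 unpaired libraries and 0 to 0 with any 1 library left out. Runx2 lost its call by limma-voom (0.0576) and Col2a1 with no filter (0.0533). Without wild type replicate 4, Sox6 turned to −0.05 and Acan to −0.08 (with any 1 library left out, −0.05 to 0.21 and −0.08 to 0.58), neither called in any fit. The causes of the other changes were not tested. With 15 wild type fragments of Matn3 and 3 of Comp, depth limits the size of the first and any call on the second.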
